A study of Mus musculus with 9 samples.

Results

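The core proteins of the extracellular matrix proteoglycans were examined in mouse heart by the transcripts of 10 genes, Dcn, Bgn, Aspn, Lum, Fmod, Omd, Prelp, Ogn, Podn and Vcan. The genes were chosen by name from the 41710 gene names of the deposited tables, with earlier results of these data known. All 10 passed the filter on low counts, as did 15504 genes in total. In Tg-RKIP hearts 9 of them were higher than in FVB, with fibromodulin (Fmod, 2.26 ± 0.037 on the log2 scale, SE), biglycan (Bgn, 2.02 ± 0.018), osteomodulin (Omd, 1.70 ± 0.16), Prelp (1.56 ± 0.024) and lumican (Lum, 1.23 ± 0.024) showing differences above 1. Osteoglycin (Ogn) was the exception, at -0.30 ± 0.027.

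Small leucine-rich proteoglycans are secreted proteins with a horseshoe-shaped stack of leucine-rich repeats that binds collagen. They steer the assembly and thickness of collagen fibrils, and several of them bind growth factors of the transforming growth factor beta family. Class I holds decorin, biglycan and asporin, class II holds lumican, fibromodulin, osteomodulin and Prelp, class III holds osteoglycin, and podocan belongs to class V. Decorin and biglycan carry chondroitin or dermatan sulphate chains, the class II members carry keratan sulphate or sulphated tyrosines, and asporin is usually free of chains. Versican is a large proteoglycan of another family, the hyalectans, which bind hyaluronan and fill soft, hydrated matrix. In the heart these proteins are made mainly by fibroblasts and other stromal cells.

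RNA was isolated from whole hearts of male mice of the FVB/N strain at an age of 8 months, and each group was represented by 3 libraries labelled as separate hearts. Tg-RKIP mice carry a transgene for RKIP, the RAF kinase inhibitor protein encoded by Pebp1, which the study placed under the alpha-MHC promoter for expression in the myocardium. The mice of the remaining group are labelled Tg-GRK2, for a GRK2 transgene whose promoter the labels do not give. FVB controls were non-transgenic. The labels do not say how many founder lines the mice came from.

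Between 25458108 and 33447654 reads were assigned to transcripts per library. Pebp1 reached 15967 to 16371 TPM in Tg-RKIP against 321 to 330 TPM in FVB, whereas Grk2 ranged from 24.9 to 30.5 TPM where the label gives Tg-GRK2, overlapping the 25.9 to 27.9 TPM of FVB, so that group is named by its label. TPM is an abundance that divides reads by transcript length and has the same sum in every library. Mitochondrially encoded genes took 11.5 to 11.8% of the reads in Tg-RKIP and 22.4 to 23.2% in the other libraries. Differences were therefore tested on reads scaled by the trimmed mean of M values (TMM), with edgeR's quasi-likelihood test and Benjamini-Hochberg adjustment. Under that scaling Tg-RKIP exceeded FVB for 5709 genes and fell below it for 5751. Scaling to library size alone gave 9710 higher and 2649 lower and moved the median of all genes by 0.38 on the log2 scale, and limma on log2(TPM + 0.1) gave 8932 higher and 1964 lower with a median of 0.43. TPM levels of Tg-RKIP libraries hold that shift, whereas the log2 differences given here do not.

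Decorin and biglycan were the most abundant of the 10 core protein transcripts in every group. In FVB hearts the order of mean levels was Dcn, Bgn, Ogn, Lum, Aspn, Prelp, Podn, Fmod, Vcan and Omd, and no neighbours in that order overlapped. The libraries labelled Tg-GRK2 kept Dcn, Bgn, Ogn and Lum in front, followed by Prelp and Aspn, whose ranges overlapped. In Tg-RKIP hearts the order was Dcn, Bgn, Lum, Prelp, Ogn, Fmod, Aspn, Podn, Vcan and Omd, again without overlap between neighbours. The 10 genes summed to 3128 ± 24.5 TPM in Tg-RKIP, 1217 ± 9.83 TPM with the Tg-GRK2 label and 1142 ± 23.1 TPM in FVB (mean ± SD, n = 3).

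**Figure D1:**
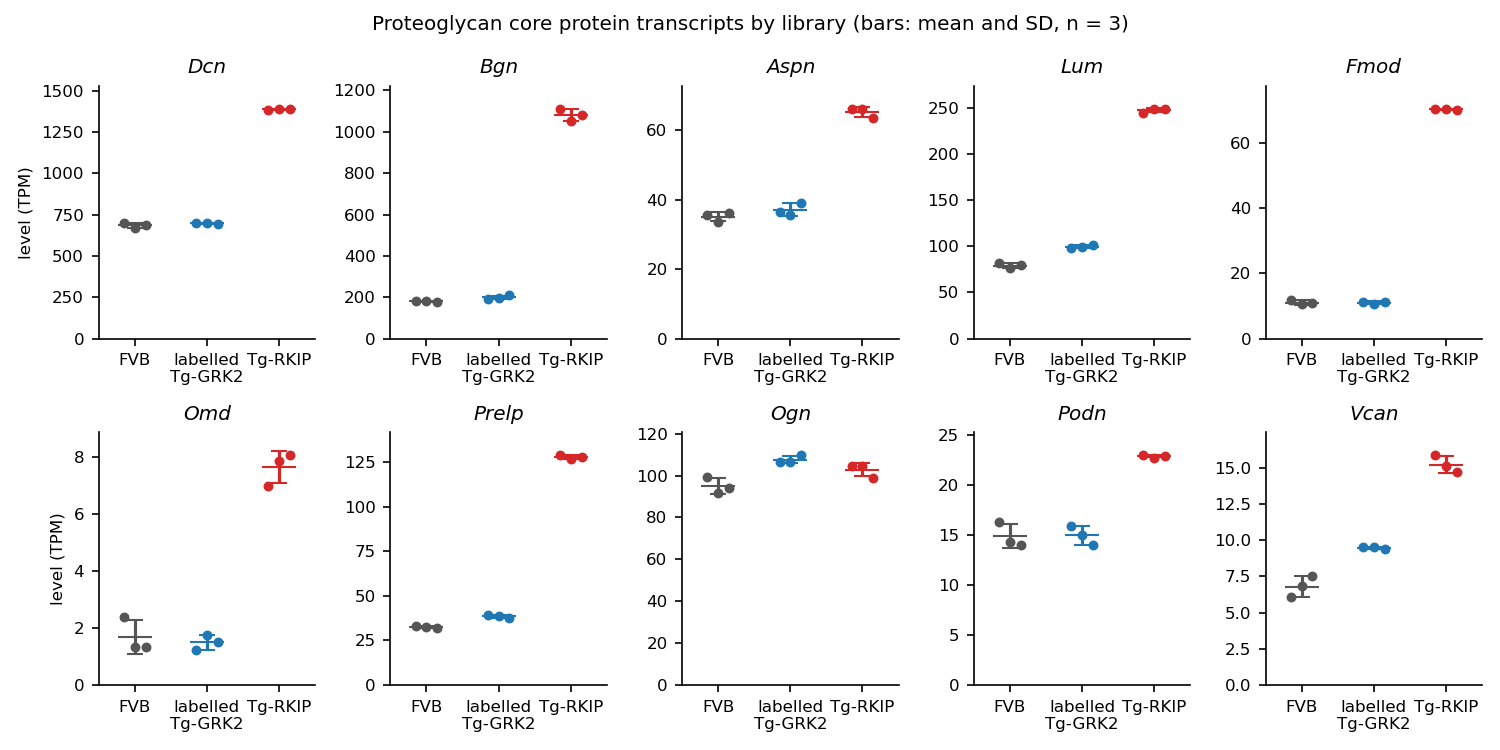
Level of each of the 10 genes in TPM (vertical axes, from 0) in the 3 libraries of each group, with points for libraries and bars for mean and SD. Tg-RKIP libraries lie above the other 6 for 9 genes, while for Ogn the 3 groups lie between 91.7 and 110 TPM.

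The make-up of the sum differed between groups, as shown in the plot of shares by library. Dcn made up 60.1 ± 0.29% of it in FVB, 57.3 ± 0.67% with the Tg-GRK2 label and 44.3 ± 0.45% in Tg-RKIP. The share of Bgn was 15.8 ± 0.39% in FVB, 16.4 ± 0.58% in the Tg-GRK2 label and 34.6 ± 0.63% in Tg-RKIP. Ogn went the other way, from 8.32 ± 0.19% in FVB and 8.84 ± 0.085% in the Tg-GRK2 label to 3.28 ± 0.10% in Tg-RKIP. These shares are ratios within a library and do not depend on the scaling between libraries. The shares and the ratios to Bgn include a 548-base Bgn transcript. It held 19.9% of the Bgn TPM in Tg-RKIP, 3.41% in the Tg-GRK2 label and 7.79% in FVB. Within libraries, Dcn stood at 3.81 ± 0.10 times the level of Bgn in FVB and at 1.28 ± 0.036 times in Tg-RKIP. The ratio of Fmod to its chromosomal neighbour Prelp was 0.340 ± 0.016 in FVB, 0.287 ± 0.015 in the Tg-GRK2 label and 0.551 ± 0.0046 in Tg-RKIP.

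**Figure D2:**
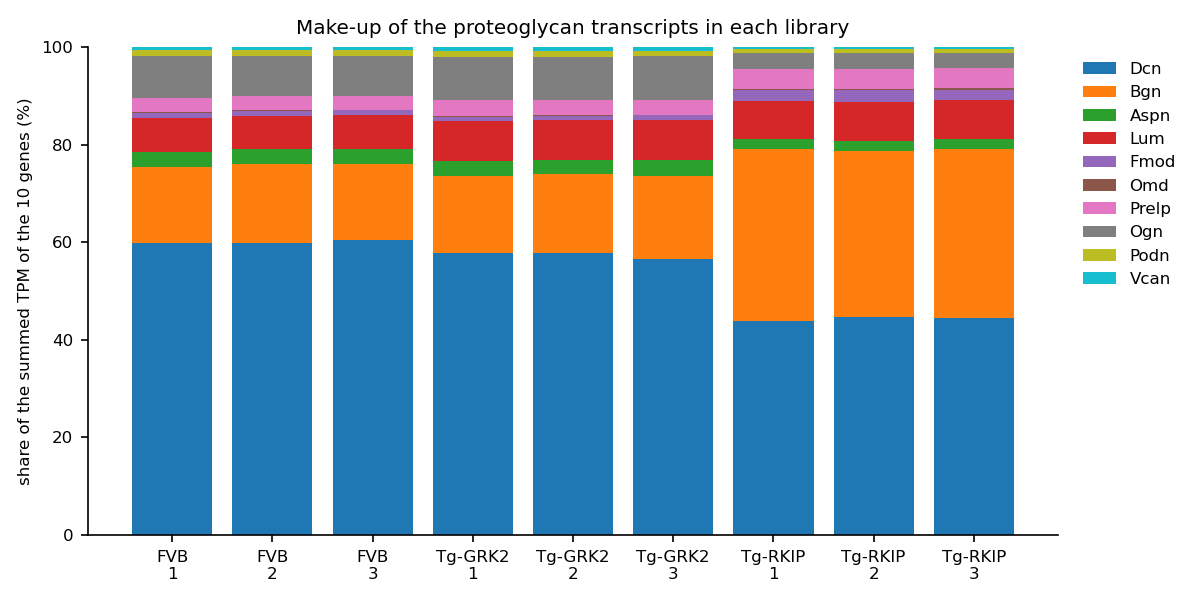
Share of each gene in the summed TPM of the 10 genes (vertical axis, per cent) in each of the 9 libraries. Bgn takes 34.6% on average in Tg-RKIP against 15.8% in FVB, and the shares of Dcn and Ogn are smaller in Tg-RKIP.

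In Tg-RKIP against FVB, 9 of the 10 genes were higher and 1 was lower at an adjusted p under 0.05. Across all genes tested 36.8% were higher and 37.1% lower, 73.9% in either direction. A call as such is thus common in this comparison, and the 9 higher calls of 10 stand beside 36.8%. Since the 10 genes were chosen with earlier results of these data known, the shares set beside them here are a description. The median difference of the 10 genes was 0.91 on the log2 scale against 0.01 over all genes. Of the 10, 5 were called higher with a difference of at least 1, beside 10.2% of all genes, and none lower by as much, beside 6.12%. In TPM, the Tg-RKIP and FVB libraries did not overlap for 9 genes, all higher, beside 64.3% of all genes higher and 14.4% lower without overlap. The exact two-sided permutation test on TPM gave p = 0.1 for these 9 genes, the smallest value that 3 libraries against 3 allow.

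Class I was led by decorin, the main dermatan sulphate proteoglycan of fibrillar collagen. Dcn stood at 1383, 1389 and 1390 TPM in the Tg-RKIP libraries, at 697, 702 and 694 TPM in the libraries labelled Tg-GRK2, and at 698, 670 and 690 TPM in FVB. The 3 Tg-RKIP libraries were about level with each other and above the other 6, which overlapped. The difference on TMM-scaled reads was 0.60 ± 0.017 on the log2 scale for Tg-RKIP against FVB (adjusted p = 2.24e-18, edgeR), and 80.8% of all genes had a smaller one.

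Biglycan, the closest relative of decorin and a ligand of Toll-like receptors when released from the matrix, changed more. Bgn stood at 1111, 1055 and 1080 TPM in Tg-RKIP, at 192, 197 and 209 TPM in the Tg-GRK2 label, and at 181, 181 and 178 TPM in FVB. None of the 3 groups overlapped another. The log2 difference of Tg-RKIP against FVB was 2.02 ± 0.018 (adjusted p = 6.59e-27, edgeR), and 411 of the 15504 genes had a larger one. The libraries labelled Tg-GRK2 exceeded FVB by 0.15 ± 0.018 (adjusted p = 3.08e-06, edgeR).

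Asporin binds collagen at the same site as decorin. Aspn stood at 66.0, 66.1 and 63.4 TPM in Tg-RKIP, at 36.6, 35.6 and 39.2 TPM in the Tg-GRK2 label, and at 35.7, 33.6 and 36.1 TPM in FVB. Tg-RKIP lay above the other libraries, which overlapped with each other. Its difference in Tg-RKIP against FVB, 0.48 ± 0.036 on the log2 scale (adjusted p = 9.93e-11, edgeR), was close to that of Dcn. Over the 9 libraries the log2 profiles of Dcn and Aspn, centred on the FVB mean, differed by a root mean square of 0.089, the smallest value among pairs of the 10 genes.

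Among class II members, lumican is needed for regular collagen fibrils in cornea and skin. Lum stood at 245 to 249 TPM in the 3 Tg-RKIP libraries, at 98.4, 98.9 and 102 TPM in the Tg-GRK2 label, and at 81.4, 76.6 and 79.3 TPM in FVB. The groups formed separate levels, with the Tg-GRK2 label between FVB and Tg-RKIP. The log2 differences were 1.23 ± 0.024 for Tg-RKIP against FVB (adjusted p = 2.22e-21, edgeR) and 0.28 ± 0.024 for the Tg-GRK2 label against FVB (adjusted p = 1.24e-08, edgeR).

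Fibromodulin, which competes with lumican for collagen and takes part in collagen cross-linking, showed the largest difference of the 10 genes. Fmod stood at 70.4, 70.3 and 70.1 TPM in Tg-RKIP, at 11.3, 10.5 and 11.2 TPM in the Tg-GRK2 label, and at 11.7, 10.5 and 10.9 TPM in FVB. The Tg-RKIP libraries were about 6.37 ± 0.012 times the FVB mean in TPM, while the other 6 libraries overlapped. On TMM-scaled reads the log2 difference was 2.26 ± 0.037 (adjusted p = 1.26e-22, edgeR), with 328 genes above it.

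Prelp, a heparin-binding member that anchors basement membranes to connective tissue, lies beside Fmod in the genome. Its level was 129, 126 and 128 TPM in Tg-RKIP, 39.2, 38.7 and 37.3 TPM in the Tg-GRK2 label, and 33.1, 32.5 and 31.7 TPM in FVB. As for Lum, the 3 groups did not overlap and the Tg-GRK2 label took the middle place. The log2 difference was 1.56 ± 0.024 for Tg-RKIP against FVB (adjusted p = 3.75e-23, edgeR) and 0.19 ± 0.025 for the Tg-GRK2 label against FVB (adjusted p = 5.84e-06, edgeR).

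Osteomodulin, a keratan sulphate proteoglycan known from bone and dentine, was the least abundant of the 10. Omd was counted with 187, 269 and 215 reads in Tg-RKIP, with 38, 58 and 55 reads in the Tg-GRK2 label, and with 71, 49 and 39 reads in FVB. In TPM this gave 7.0 to 8.06 in Tg-RKIP against 1.32 to 2.39 in FVB, and the Tg-GRK2 label, at 1.23 to 1.77, overlapped FVB. The log2 difference of Tg-RKIP against FVB, 1.70 ± 0.16 (adjusted p = 4.13e-09, edgeR), had the widest error of the 10 genes at these low counts.

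Osteoglycin, the class III member also called mimecan, was lower in Tg-RKIP on TMM-scaled reads. Ogn stood at 105, 105 and 99.1 TPM in Tg-RKIP, at 107, 107 and 110 TPM in the Tg-GRK2 label, and at 99.4, 91.7 and 93.9 TPM in FVB. The highest FVB library lay just above the lowest Tg-RKIP library, and the libraries labelled Tg-GRK2 were above both groups. The log2 difference of Tg-RKIP against FVB was -0.30 ± 0.027 (adjusted p = 1.43e-09, edgeR). Its sign depended on the scaling, at 0.072 with library size alone (adjusted p = 0.022, edgeR) and 0.11 in limma on log2(TPM + 0.1) (adjusted p = 0.0117). Relative to the median shift of all genes under these scalings, 0.38 and 0.43, Ogn remained on the lower side.

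Podocan, a class V member studied in kidney and vascular smooth muscle, changed least of the genes that were higher. Podn stood at 23.0, 22.7 and 22.9 TPM in Tg-RKIP, at 15.9, 15 and 14 TPM in the Tg-GRK2 label, and at 16.3, 14.3 and 14 TPM in FVB. Tg-RKIP did not overlap the other libraries, which overlapped with each other. On TMM-scaled reads the log2 difference was 0.20 ± 0.044 (adjusted p = 3.07e-04, edgeR), and 63.1% of all genes had a smaller one.

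Versican rose in both comparisons with FVB on summed reads. Vcan was counted with 1301, 1657 and 1194 reads in Tg-RKIP, with 1130, 1130 and 1300 reads in the Tg-GRK2 label, and with 776, 933 and 828 reads in FVB. Once scaled, the log2 differences from FVB were 0.34 ± 0.039 in Tg-RKIP (adjusted p = 9.43e-08, edgeR) and 0.39 ± 0.040 in the Tg-GRK2 label (adjusted p = 1.76e-07, edgeR). In TPM Vcan reached 15.9, 15.1 and 14.7 in Tg-RKIP, 9.54, 9.51 and 9.40 with the Tg-GRK2 label, and 6.10, 6.82 and 7.50 in FVB, with no overlap between groups. Summed TPM of Vcan rests largely on a short transcript, as described with its splice forms.

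**Figure D3:**
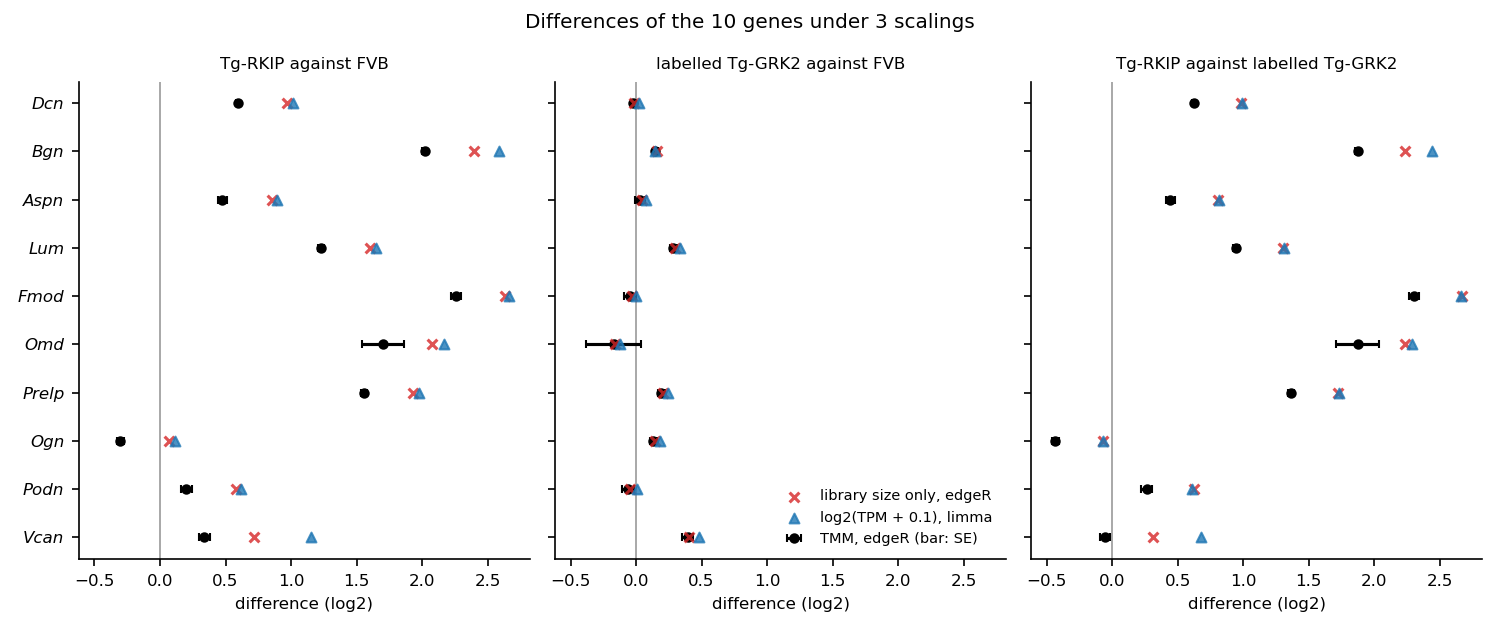
Log2 difference of each gene (horizontal axes) in the 3 comparisons, as black points with SE from edgeR on TMM-scaled reads, red crosses for library size alone and blue triangles for limma on log2(TPM + 0.1). In both comparisons of Tg-RKIP the other scalings lie to the right of the TMM values, with Ogn crossing 0 against FVB and Vcan against the Tg-GRK2 label.

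In the libraries labelled Tg-GRK2 against FVB, which share the FVB libraries with the comparison above, 5 of the 10 genes were higher and none was lower, beside 12.2% of all genes higher, 12.2% lower and 24.5% called in all. The 5 were Bgn, Lum, Prelp, Ogn and Vcan, with log2 differences from 0.13 to 0.39. None reached 1 in either direction, beside 0.929% of all genes higher and 0.651% lower by as much. The TPM of these 5 did not overlap FVB, beside 22.9% of all genes higher and 10.8% lower without overlap. The 5 genes not called had values of -0.17 (Omd), -0.06 (Podn), -0.05 (Fmod), -0.03 (Dcn) and 0.03 (Aspn), with adjusted p from 0.31 to 0.62 in edgeR. Ogn differed from FVB by 0.13 ± 0.027 (adjusted p = 8.86e-04, edgeR), on the other side of 0 from its value in Tg-RKIP.

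Between Tg-RKIP and the libraries labelled Tg-GRK2, 8 genes were higher in Tg-RKIP, Ogn was lower at -0.43 ± 0.027 (adjusted p = 2.42e-12, edgeR), and Vcan was not called at -0.05 ± 0.037 (adjusted p = 0.194, edgeR). The direction and the call of Vcan depended on the setting, as it was higher in Tg-RKIP by 0.31 with library size alone (adjusted p = 1.46e-07, edgeR), by 0.68 in limma on log2(TPM + 0.1) (adjusted p = 8.67e-06) and by 0.96 on its most abundant transcript. Among all genes 37.9% were higher, 36.6% lower and 74.5% called in this comparison. Fmod again had the largest difference, 2.30 ± 0.036, followed by Omd at 1.87 ± 0.16 and Bgn at 1.87 ± 0.018. Among the 10, 4 were called higher with a difference of at least 1, beside 9.89% of all genes, and none lower by as much, beside 6.91%. In TPM 9 genes were higher and Ogn lower without overlap, beside 61.6% and 16.9% of all genes. Lum, higher than in FVB in Tg-RKIP and with the Tg-GRK2 label, was higher by 0.94 ± 0.023 in Tg-RKIP than in the Tg-GRK2 label (adjusted p = 1.56e-19, edgeR).

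Transcript length moved with the differences across all genes and is given beside the 10 genes. In Tg-RKIP against FVB the median difference was 0.17 on the log2 scale for genes whose most abundant transcript has 1000 to 1999 bases, 0.09 for 2000 to 2999 bases, -0.01 for 3000 to 3999 bases and -0.46 for 9000 bases or more. Fmod and Prelp, at 3120 and 3615 bases, exceeded 98.3% and 95.8% of the 2543 genes in their length range. Bgn, at 2419 bases, exceeded 98.0% of 3466 genes, and Podn, at 2885 bases, 58.3% of the same genes. Vcan, at 12427 bases, had a difference of 0.34 where the median of the 454 longest genes was -0.46, and 87.7% of them were below it. Dcn, at 1758 bases, exceeded 74.8% of 3516 genes, and Omd, at 1556 bases, 94.9% of them. Lum, at 2448 bases, exceeded 92.6% of the 3466 genes of 2000 to 2999 bases, Aspn, at 2310 bases, 73.7%, and Ogn, at 2566 bases, 23.5%. The part of length in these values was not tested.

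Of the 10 genes, 7 lie in clusters of leucine-rich repeat genes together with related genes. Coordinates here are those of the deposited tables, whose build is GRCm39. On chromosome 10, Dcn (97315471 to 97354005, plus strand) is followed by Lum (97400990 to 97408565), the corneal gene Kera, with 0 to 7 reads per library, and the cartilage gene Epyc, with 71 to 119 reads. Dcn and Lum differed by 0.60 and 1.23 in Tg-RKIP against FVB, while Epyc had a value of -0.30 that was not called. On chromosome 13 the order is Ecm2, Aspn (49697919 to 49721041), Omd (49735938 to 49746298) and Ogn (49761522 to 49777977), all on the plus strand. The values along this cluster were 0.20 for Ecm2, 0.48 for Aspn, 1.70 for Omd and -0.30 for Ogn, so that adjacent genes differed in size and sign. Omd and Ogn are 15223 bases apart. On chromosome 1, Prelp (133838042 to 133849152, minus strand) and Fmod (133964992 to 133976015, plus strand) are 115839 bases apart, with values of 1.56 and 2.26, and Optc beside Prelp had 5 to 11 reads. Bgn lies on chromosome X (72527208 to 72539539), Podn on chromosome 4 (107871988 to 107953642) and Vcan on chromosome 13 (89803431 to 89890628). Other genes share exonic bases with these 10 in 2 places only, 350 bases of Prelp with Gm15851, which had 0 to 2 reads, and 7 bases of Aspn with Cenpp, which had 45 to 93 reads. Whether the counting used strand is not stated.

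The promoters of Fmod, Bgn, Omd and Prelp, the 4 genes with the largest differences in Tg-RKIP against FVB, are shown with that of Ogn, the gene that was lower and the neighbour of Omd. The sequences are from RefSeq on GRCm38.p6, the 250 bases before an annotated start, with capitals for the letters CCCTCCC and TATAAA on either strand. Bgn lies at chrX:73483351-73483600 on the plus strand, Fmod at chr1:134037004-134037253 on the plus strand, Prelp at chr1:133921402-133921651 on the minus strand, Omd at chr13:49582212-49582461 on the plus strand, and Ogn at chr13:49607765-49608014 on the plus strand.
Bgn: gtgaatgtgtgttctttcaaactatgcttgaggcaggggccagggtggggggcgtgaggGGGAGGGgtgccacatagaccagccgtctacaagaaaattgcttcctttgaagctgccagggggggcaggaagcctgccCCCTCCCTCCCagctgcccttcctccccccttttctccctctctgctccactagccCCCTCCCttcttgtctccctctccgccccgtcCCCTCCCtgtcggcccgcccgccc
Fmod: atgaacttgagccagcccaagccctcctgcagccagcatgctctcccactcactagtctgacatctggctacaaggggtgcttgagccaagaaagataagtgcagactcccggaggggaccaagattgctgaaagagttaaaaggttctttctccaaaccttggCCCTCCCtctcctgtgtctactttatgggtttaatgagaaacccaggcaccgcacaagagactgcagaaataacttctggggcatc
Prelp: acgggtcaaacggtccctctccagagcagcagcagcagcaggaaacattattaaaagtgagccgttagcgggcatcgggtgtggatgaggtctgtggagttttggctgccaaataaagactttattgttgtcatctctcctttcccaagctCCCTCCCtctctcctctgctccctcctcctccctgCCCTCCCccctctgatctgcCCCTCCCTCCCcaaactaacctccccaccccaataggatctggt
Omd: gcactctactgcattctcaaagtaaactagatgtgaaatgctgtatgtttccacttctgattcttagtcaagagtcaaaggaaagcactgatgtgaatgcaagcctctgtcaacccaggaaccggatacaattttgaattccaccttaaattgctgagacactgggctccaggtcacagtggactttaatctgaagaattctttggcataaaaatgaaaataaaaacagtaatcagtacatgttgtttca
Ogn: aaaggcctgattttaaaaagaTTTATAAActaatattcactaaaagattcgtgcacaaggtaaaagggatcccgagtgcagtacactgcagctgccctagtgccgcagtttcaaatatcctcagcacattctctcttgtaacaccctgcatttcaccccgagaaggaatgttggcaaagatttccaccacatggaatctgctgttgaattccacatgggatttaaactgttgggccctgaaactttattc
Overlapping matches were counted separately. CCCTCCC occurred 5 times in the Bgn window, 4 times in that of Prelp, once in that of Fmod and once in each of the 2 windows of Podn, the gene that rose least. It was found in none of the windows of Omd, Aspn, Ogn and Vcan, and 19.7% of 32851 promoter windows hold it at least once. The windows of Ogn and Aspn hold TATAAA on both strands, and those of Bgn, Fmod, Prelp, Omd, Podn and Vcan do not. Of all windows 12.4% hold those letters. Dcn and Lum had no window and were not searched. Windows were matched by symbol and not by the transcript with most reads. By position, those of Podn do not precede its main transcript, with 66.5% of the reads. The Omd window precedes the transcript with 13.6% of the reads and not the one with 86.4%. Among the windows searched, neither set of letters followed the order of the differences, and starts without a window were not covered. The share of G and C was 78.0% and 64.0% in the windows of Podn, 64.4% in Bgn, 62.4% in Vcan, 55.6% in Prelp, 51.2% in Fmod, 42.0% in Ogn, 38.4% in Omd and 30.0% in Aspn, beside a median of 52.4% over all windows. These are matches of letters and not binding sites.

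The reads of most of the 10 genes fell on a single transcript. Lum, Fmod, Ogn and Prelp had at least 99.9% of their reads on 1 transcript each, and Aspn 98.9%. The second Dcn transcript, with another first exon, took 12.4 ± 2.3% of the reads in Tg-RKIP, 14.9 ± 2.3% in the Tg-GRK2 label and 18.9 ± 3.0% in FVB. Its lowest FVB share, 16.1%, lay above the highest of Tg-RKIP, 14.5%. In Bgn, a processed transcript of 548 bases with 2167, 2185 and 2067 reads in Tg-RKIP had 0, 29 and 215 reads in the Tg-GRK2 label and 115, 243 and 90 reads in FVB. It held 5.36% of the Bgn reads in Tg-RKIP but 19.9% of the summed TPM, since short transcripts weigh more in TPM. Without it, on the most abundant transcript alone, the log2 difference of Bgn in Tg-RKIP against FVB was 1.95. The main Podn transcript took 75.6 ± 4.2% of the reads in Tg-RKIP, 63.4 ± 14% in the Tg-GRK2 label and 56.1 ± 12% in FVB, and the second of Podn 21.1 ± 6.5%, 28.8 ± 7.1% and 39.9 ± 13%. Of Omd, the main transcript took 92.3 ± 3.1% in Tg-RKIP, 70.7 ± 14% in the Tg-GRK2 label and 76.6 ± 12% in FVB. How reads shared by several transcripts were divided is not stated, so these shares are a description of the deposited assignment.

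Versican is spliced into forms that differ in 2 large exons to which chondroitin sulphate chains are attached. V0 holds both exons, V1 lacks the first, V2 lacks the second and V3 lacks both. In the reference annotation (GENCODE M21, GRCm38, minus strand) the first of these exons has 2880 bases at chr13:89702918-89705797 and the second 5217 bases at chr13:89688285-89693501. The junctions that tell V0 and V1 apart are shown with 20 bases from each exon, the downstream exon in capitals. The first joins the preceding exon of 294 bases to the 2880-base exon and is shared by V0 and V2, the second joins both large exons and is found in V0 alone of the 4 forms, and the third skips the 2880-base exon and is found in V1 alone.
V0 and V2 entry: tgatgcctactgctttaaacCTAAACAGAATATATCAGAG
V0 exon pair: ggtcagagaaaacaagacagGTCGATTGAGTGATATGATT
V1 skip: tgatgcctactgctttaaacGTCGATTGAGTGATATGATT
Reads assigned to V0 numbered 1084, 1478 and 1054 in Tg-RKIP, 426, 469 and 625 in the Tg-GRK2 label, and 477, 539 and 401 in FVB. Reads assigned to V1 numbered 64, 0 and 0 in Tg-RKIP, 630, 605 and 604 in the Tg-GRK2 label, and 264, 345 and 378 in FVB. Of the reads on the 2 forms, V1 thus held 0 to 5.57% in Tg-RKIP, 49.1 to 59.7% in the Tg-GRK2 label and 35.6 to 48.5% in FVB. The Tg-RKIP libraries did not overlap the others, and the Tg-GRK2 label lay above FVB throughout. V2 had 0 reads in all 9 libraries and V3 had 0 to 16. On V0 alone, the most abundant transcript, the log2 difference of the Tg-GRK2 label against FVB was 0.0053 (adjusted p = 0.984, edgeR), and Tg-RKIP exceeded the Tg-GRK2 label by 0.96 (adjusted p = 3.53e-05, edgeR). A transcript of 861 bases held 11% of the Vcan reads but 63.5% of its summed TPM in Tg-RKIP, and 5.19% and 39.5% in FVB. V0 and V1 share all of their sequence but the 2880-base exon and its junctions, apart from their transcript ends, and the reads behind each assignment are not analysed here.

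**Figure D4:**
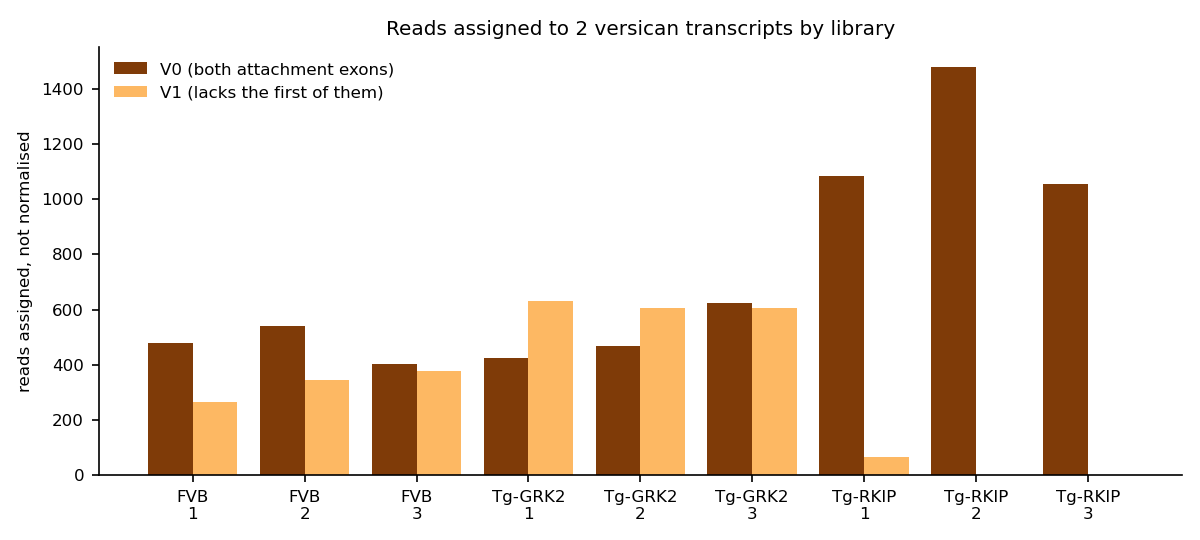
Reads assigned to the versican transcripts V0 and V1 (vertical axis, not normalised) in each of the 9 libraries. V1 received 264 to 630 reads in FVB and the libraries labelled Tg-GRK2 and 0 to 64 in Tg-RKIP, where V0 received 1054 to 1478.

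The other leucine-rich repeat genes of the matrix formed a list of 10, of which 7 were tested. Of these, 5 exceeded FVB in Tg-RKIP and none fell below it, beside 36.8% and 37.1% of all genes. Their median difference was 0.45 on the log2 scale. The count of lower genes was 1 without Tg-RKIP replicate 2 and with the replicate number as a block. Chondroadherin (Chad), which binds collagen and integrin on cartilage cells, rose by 2.61 ± 0.067, from 3.45 to 4.12 TPM in FVB to 30.4 to 31.2 TPM. Tsukushi (Tsku), an inhibitor of bone morphogenetic protein signalling, rose by 1.21 ± 0.12, and Lrrc17 by 0.30 ± 0.066. Ecm2, at 0.20 ± 0.036, and Podnl1, the closest relative of podocan, were also higher. Podnl1 had only 18 to 25 reads in Tg-RKIP and 1 to 5 reads in FVB, with a log2 difference of 2.13 ± 0.43. In the Tg-GRK2 label only Ecm2 was higher and none was lower, beside 12.2% of all genes in each direction. Ecm2 differed by 0.11 (adjusted p = 0.0314, edgeR), and this call was lost without replicate 1 or 3 of that label or FVB replicate 2.

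Among 21 tested core proteins of other proteoglycans, Tg-RKIP exceeded FVB in 12 and fell below it in 7, with a median of 0.60. Of all genes 36.8% were higher, and the 7 lower stand near the 37.1% of all genes. Aggrecan (Acan), the hyalectan of cartilage, rose by 5.01 ± 0.23, from 0.0263 to 0.0873 TPM in FVB to 2.37 to 2.93 TPM. The cell-surface heparan sulphate proteoglycan syndecan 4 (Sdc4) rose by 1.54 ± 0.039, with 51.6 to 57.1 TPM against 13.8 to 14.5 TPM, and Esm1, the endothelial proteoglycan endocan, by 1.40 ± 0.15. The lower ones included glypican 1 (Gpc1) at -0.80 ± 0.018, with 128 to 132 TPM against 168 to 171 TPM, Gpc6 at -0.36 ± 0.068 and perlecan (Hspg2), the large proteoglycan of basement membranes, at -0.35 ± 0.019. Perlecan was higher in summed TPM, with 145 to 148 in Tg-RKIP and 76.5 to 78.0 in FVB, so its direction depended on the measure. At 14187 bases, its log2 value lay above the median of -0.46 of the 454 longest genes, of which 60.6% had a smaller one. Of the 7 lower calls, 1 remained in count with library size alone and 1 in limma on log2(TPM + 0.1). In the Tg-GRK2 label 6 of the list were higher and 1 was lower, beside 12.2% of all genes in each direction, and 2 were lower without FVB replicate 1 or with the replicate number as a block.

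Hyaluronan is the partner of versican, and 13 of 16 genes for its synthesis, linking and turnover were tested. Tg-RKIP exceeded FVB in 9 and fell below it in 2, with a median of 0.60, beside 36.8% and 37.1% of all genes. Cd44, the main hyaluronan receptor, rose by 1.44 ± 0.050, with 13.6 to 14.2 TPM against 3.92 to 4.23 TPM, and was lower in the Tg-GRK2 label than in FVB by a log2 value of -0.38 (adjusted p = 1.19e-04, edgeR). The hyaluronidases Cemip2 and Hyal1 rose by 0.60 ± 0.042 and 0.46 ± 0.086. The lower ones, named after their values were seen, were the synthases Has2 and Has3, at 0.197 to 0.356 and 0.465 to 0.532 TPM in Tg-RKIP. Both calls were lost without Tg-RKIP replicate 1 or FVB replicate 3, and 1 of them without Tg-RKIP replicate 2 or FVB replicate 1 or 2. In FVB these genes stood at 0.320 to 0.377 and 0.491 to 0.613 TPM, overlapping Tg-RKIP, and neither was called lower with DESeq2, library size alone, limma on TPM or the most abundant transcript.

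The enzymes that build and sulphate chondroitin, dermatan and keratan sulphate chains moved mostly upwards. Of 26 tested genes 19 rose and 1 fell in Tg-RKIP against FVB, with a median of 0.37, beside 36.8% higher and 37.1% lower among all genes. The chondroitin 4-sulphotransferase Chst12 rose by 1.39 ± 0.081, with 9.38 to 10.4 TPM against 2.74 to 2.99 TPM. The chondroitin polymerising factors Chpf and Chpf2 rose by 1.26 ± 0.040 and 1.21 ± 0.052. Fam20b, the xylose kinase of the linker, was lower at -0.45 ± 0.028 on TMM-scaled reads, with 28.8 to 30.9 TPM against 30.2 to 30.5 TPM, and was not called in limma on TPM. In the Tg-GRK2 label 2 were higher and 1 was lower, and 23 were not called, beside 12.2% of all genes in each direction. The 2 higher calls became 1 without replicate 1 or 2 of that label or FVB replicate 1 or 3, 0 with DESeq2, and 4 with its size factors or library size alone.

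The list of proteases that cleave versican or mature these proteins held 11 tested genes, of which 6 rose and 2 fell in Tg-RKIP against FVB, with a median of 0.35, beside 36.8% and 37.1% of all genes. Without any one library 2 to 3 fell. Adamts20, a versican-cleaving protease, rose by 3.23 ± 0.19, from 0.125 to 0.236 TPM in FVB to 3.45 to 4.45 TPM. The enhancers of procollagen C-proteinase, Pcolce and Pcolce2, rose by 1.77 ± 0.030 and 1.08 ± 0.041, with Pcolce at 215 to 219 TPM against 45.3 to 49.5 TPM. Adamts9, another versican-cleaving protease, was lower at -1.0 ± 0.074, with 2.52 to 2.76 TPM against 3.31 to 3.82 TPM. In the Tg-GRK2 label 3 were higher and 1 was lower, beside 12.2% of all genes in each direction. The count of lower genes was 2 without replicate 1 of that label or FVB replicate 2.

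**Figure D5:**
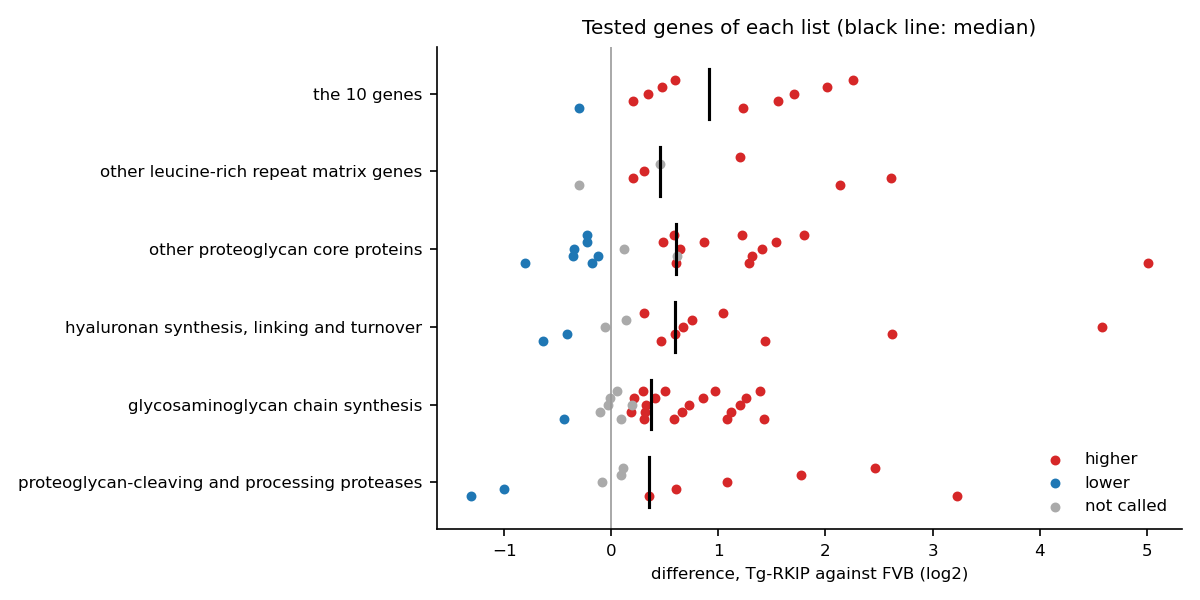
Log2 difference of Tg-RKIP against FVB (horizontal axis) for every tested gene of the 10 and of the 5 lists, coloured by the call, with a black line at each list's median. The median of the 10 genes is 0.91 and those of the lists are 0.35 to 0.60.

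In whole heart, more RNA per cell and more cells of a type cannot be told apart, so marker genes of cell types are given beside these results, to be read against the 36.8% of all genes higher and 37.1% lower in Tg-RKIP against FVB and 12.2% each with the Tg-GRK2 label. Of 8 fibroblast identity markers 7 rose and Scara5 fell in Tg-RKIP against FVB, and their summed level was 483 to 497 TPM in Tg-RKIP, 232 to 238 TPM in the Tg-GRK2 label and 186 to 195 TPM in FVB. In the Tg-GRK2 label 7 of the 8 were higher than in FVB. Markers of activated fibroblasts were higher in 7 of 8 cases in Tg-RKIP, with sums of 1188 to 1205 TPM against 246 to 254 TPM in FVB, while 2 were higher and 1, Acta2, lower in the Tg-GRK2 label at 234 to 245 TPM. The largest parts of the Tg-RKIP sums were Acta2, at 414 to 428 TPM, and Comp, at 290 to 296 TPM. In FVB Acta2 stood at 150 to 160 TPM and Comp at 9.71 to 10.5 TPM. On TMM-scaled reads the differences were uneven within the lists, at 0.26 for Pdgfra, -0.46 for Scara5, 4.28 for Comp and -0.22 for Fap, which was not called. In TPM Fap was higher in Tg-RKIP without overlap, at 3.82 to 5.30 against 2.64 to 3.69 in FVB. Scara5 overlapped in TPM, at 11.6 to 12.1 in Tg-RKIP and 12.0 to 12.5 in FVB, so both directions depended on the measure.

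Cartilage and bone markers were also read in Tg-RKIP hearts. Of 10 tested cartilage markers 9 were higher, none was lower, and the sums were 83.1 to 85.1 TPM in Tg-RKIP, 8.26 to 9.62 TPM in the Tg-GRK2 label and 9.60 to 10.2 TPM in FVB. Col2a1 stood at 31.4 TPM on average against 0.015 TPM in FVB. That list shares Acan, Chad and Hapln1 with the lists above. All 4 markers of mineralised tissue were higher, with sums of 29.3 to 34.2 TPM in Tg-RKIP against 0.0403 to 0.127 TPM in FVB and 0.0464 to 0.202 TPM in the Tg-GRK2 label. Among 3 tested tendon markers 2 were higher, at sums of 16 to 19.8 TPM against 6.35 to 6.78 TPM in FVB, with Kera at or near 0.

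The other marker lists moved as follows in Tg-RKIP against FVB. Macrophage (5 of 5), adipocyte (4 of 4) and mesothelial (4 of 4) markers were all higher, as were 3 of 4 smooth muscle, 3 of 4 pericyte, 3 of 5 endothelial and 2 of 3 Schwann cell markers. One smooth muscle, 1 pericyte and 2 endothelial markers were lower. Of 5 cardiomyocyte markers 4 were lower and none was higher. Their summed level was 37466 to 38272 TPM in Tg-RKIP, 35364 to 36629 TPM in the Tg-GRK2 label and 37566 to 37845 TPM in FVB. Airway epithelial transcripts were read in Tg-RKIP and in the libraries with the Tg-GRK2 label, with sums of 55.2 to 57.6 TPM in Tg-RKIP and 138 to 146 TPM in the Tg-GRK2 label against 0 to 0.0184 TPM in FVB, mainly Scgb1a1. The part of these cell types and tissues in the proteoglycan results was not tested.

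Genes outside the 10 with the nearest profiles over the 9 libraries were sought among 11342 genes with a mean of at least 100 reads, by the root mean square difference of log2 values centred on the FVB mean. Nearest to Bgn were Prss23 (0.044) and Mmp23 (0.065), to Fmod Smoc1 (0.067) and Thbs1 (0.074), and to Prelp Fbln1 (0.046) and Igfbp7 (0.047). Nearest to Lum were Atf5 (0.057) and Ltbp3 (0.061), and to Omd, at greater distance, Npy4r (0.18) and Gm13054 (0.20). For Dcn they were Actg1 and 9530068E07Rik (0.030 each), for Aspn Abhd4 and Rnase4 (0.037 each), for Ogn Slain2 and Lrrc8c (0.029 each), for Podn Coa3 (0.029) and Celf2 (0.031), and for Vcan Otud3 (0.061) and Cited2 (0.062). Genes of small difference have many near neighbours by this measure, and the values describe likeness over these libraries only.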

How the data were processed

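Total RNA from hearts of 9 mice was sequenced as single reads from fragmented, randomly primed mRNA. The authors deposited read counts per transcript and library, as whole numbers without normalisation, and TPM values, which equal those recomputed from the counts and transcript lengths to within 5.5e-06. The submitters' processing notes name the genome build GRCm39, and the aligner and the counting program are not given in the sources used here. Sequences and exon positions come from reference tables on GRCm38 and were not mixed with the deposited coordinates.

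Values of the 127558 transcripts were added up by gene name, and every column belonged to a sample of the series (0 did not). The test on gene counts was run with edgeR 4.0.16 under R 4.3.3 (TMM, filterByExpr, glmQLFit and glmQLFTest, a mean per group over all 9 libraries, no block). Adjustment followed Benjamini-Hochberg across 15504 genes at a threshold of 0.05. SE are those of the fitted log2 difference, from its F value. TPM are given as mean and SD of 3 libraries with an exact two-sided permutation test. The edgeR p-values set a difference between groups against the spread of libraries within groups, estimated over all 9 libraries. Pairs of libraries within a group differed by 1.25 to 1.52 times sampling noise, and each library counted as 1 replicate. Beyond sampling noise, libraries varied by 1.90 to 3.69% within groups and by 2.86% in the fit of all 9, as coefficients of variation. The small adjusted p-values and the many calls rest on this narrow spread. Depth was 25458108 to 33447654 reads per library, and low counts such as those of Omd carry wide errors.

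The 10 genes, the gene and marker lists, the motifs and the rules were chosen with earlier results of these data known, and the comparison by transcript length was added after the data had been seen. Named genes of the 5 pathway lists are, where called with a mean of at least 100 reads in the higher group, up to 3 higher and 3 lower ones with the largest difference in Tg-RKIP against FVB. Transcripts with at least 10% of a gene's reads and the 2 genes nearest to each of the 10 by profile are also named, and further names were chosen after their values were seen. Alternatives were other scalings, DESeq2 1.42.0, other filters, the replicate number as a block, fits of only the groups compared, each library left out, limma 3.58.1 on log2(TPM + 0.1) and log2(TPM + 1), glmTreat for a fold change of at least 1.5, and the most abundant transcript alone. On simulated data for Tg-RKIP against FVB with 191 changed genes among 14816, 90.1% were recovered, and 14 of 186 calls were false. In the deposited data 73.9% of genes were called in that comparison. Recovery and false calls with so large a part of the genes called was not tested. Promoters matched by symbol for 8 of the 10 genes, all but Dcn and Lum.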

Additional observations from a re-analysis of the deposited data

How the results depend on the processing

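The count of the 10 genes called stayed within 1.5 times its value under every alternative run except glmTreat for a fold change of at least 1.5, which called 5 (all higher) in Tg-RKIP against FVB and 0 in the Tg-GRK2 label against FVB. That stricter test called 3665, 155 and 3867 genes in all in Tg-RKIP against FVB, the Tg-GRK2 label against FVB and Tg-RKIP against the Tg-GRK2 label. Under it Dcn (0.60), Aspn (0.48), Vcan (0.34), Podn (0.20) and Ogn (-0.30) lost their calls in Tg-RKIP against FVB, as did Vcan (0.39), Lum (0.28), Prelp (0.19), Bgn (0.15) and Ogn (0.13) in the Tg-GRK2 label against FVB, and Aspn (0.44), Podn (0.26) and Ogn (-0.43) in Tg-RKIP against the Tg-GRK2 label.

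Ogn in Tg-RKIP against FVB turned to 0.072 with library size alone and to 0.11 in limma on log2(TPM + 0.1), with or without the filter, and on log2(TPM + 1). Against the Tg-GRK2 label it was -0.067 in limma on log2(TPM + 0.1), with or without the filter, and -0.066 on log2(TPM + 1), and was not called. Vcan in Tg-RKIP against the Tg-GRK2 label turned to 0.31 with library size alone, 0.68 in limma on log2(TPM + 0.1), with or without the filter, 0.63 on log2(TPM + 1) and 0.96 on the most abundant transcript, on which it was 0.0053 and not called in the Tg-GRK2 label against FVB. Podn there lost its call in Tg-RKIP against the Tg-GRK2 label at 0.50. The genes not called in the Tg-GRK2 label against FVB changed sign around 0: Dcn to 0.025 in the 3 limma fits and 0.047 on the most abundant transcript, Fmod to 0.0011 or 0.00092 and Podn to 0.011 or 0.0099 in limma, Podn to 0.12 on the most abundant transcript, Aspn to -0.014 without Tg-GRK2 replicate 3 (at most 0.070 with a library left out) and Omd to 0.12 without FVB replicate 1 (at least -0.33 with a library left out). Apart from the scaling shifts and the transcript choice, the cause was not tested. The Tg-GRK2 label against FVB gave 2060 calls in unfiltered limma and 1660 on the most abundant transcript, beside 3793.

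With each library left out, the 10 genes gave 10, 5 and 9 calls in the 3 comparisons every time. The replicate numbers did not pair the libraries: same-numbered libraries correlated in their deviations between -0.041 and 0.042. With the replicate number as a block, 10, 5 and 9 of the 10 genes were called, and no call of the 10 changed, while the lower calls of 3 pathway lists moved by 1 in Tg-RKIP or the Tg-GRK2 label against FVB. At these depths a gene with few reads, such as Omd or Has2, cannot show small differences.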
